A study of Caenorhabditis elegans with 2 samples.

Results

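EFL-1 is an E2F transcription factor of the worm *Caenorhabditis elegans*, and the regions described here are those that its chromatin immunoprecipitation signal formed at genes for transfer RNA (tRNA), small nuclear RNA (snRNA) and small nucleolar RNA (snoRNA). A region belonged to this set when its summit, the point of highest signal, lay inside such a gene or at most 200 bp from it on a nuclear chromosome. Of the 30000 regions in the relaxed list that the authors called on both replicates together, 724 qualified (2.41%). They comprised 465 regions at tRNA genes, 78 at snRNA genes and 182 at snoRNA genes, with 1 region counted under more than 1 of these biotypes. The promoter window of a protein-coding gene, taken from 1000 bp upstream to 200 bp downstream of an annotated 5′ end, also held the summit in 214 of the 724, and the other 510 lay outside every such window. For comparison, 35.1% of all pooled regions had their summit in a promoter window.

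The series has 1 group of 2 ChIP-seq samples, labelled as biological replicates 1 and 2, from young adult worms of mixed sex, taken as whole organisms. Both were of strain YL445, which carries the *unc-119* mutation ed3 and the transgene vrIs81, in which the *pie-1* promoter drives EFL-1 fused to GFP and FLAG, followed by the *efl-1* 3′ UTR and a wild-type copy of *unc-119*. The *pie-1* promoter is active in the germline, so the fusion cannot be taken to report on all tissues, and the files hold DNA regions only, which do not show the cells of origin. One label names efl-1 as the antibody target and another names the eGFP fusion, and whether native EFL-1 was precipitated is not given in the sources used here. With 1 group and no control worms among the samples, there was no comparison between conditions to test. The shares below are descriptions, and the main ones are set beside the same share over all regions or genes and beside the values of each replicate. No replicate values are given for the splits by upstream sequence, gene position, amino acid, copy number and chromosome. The same holds for summit positions and for the single lists of protein-coding genes, all of which rest on the pooled and optimal lists.

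These genes lie outside the textbook picture of an E2F factor, which acts at promoters of cell cycle and DNA replication genes transcribed by RNA polymerase II. Most tRNA genes are transcribed by RNA polymerase III from promoter elements inside the gene, the A box and the B box, which the factor TFIIIC binds. Genes for most spliceosomal snRNAs, and in worms those for the spliced leader and SmY RNAs, are transcribed by RNA polymerase II, U6 snRNA genes by RNA polymerase III. Both kinds rely on elements just upstream of the gene that the SNAPc complex binds. snoRNAs guide the methylation and pseudouridylation of ribosomal and other RNAs, and many worm snoRNAs are encoded in introns of protein-coding genes while others have promoters of their own.

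The B box is the sequence that most tRNA genes share, and its core was searched on both strands as GTTCGANNC. It lay inside 442 of 612 annotated tRNA genes (72.2%), and within 50 bp of the summit in 165 of 465 tRNA regions (35.5%). The share was 1.49% of the 101 bp windows around all pooled summits, and 0.912% without the small RNA regions. A higher share at tRNA regions follows from the rule that chose them, since their summits lie in or near genes that mostly hold the core. It was therefore not read as a result about binding. These 3 tRNA genes, an alanine, a threonine and a valine gene with regions in the optimal list described below, are printed whole, 5′ to 3′, with the core in capitals. They lie at chrII:11334013-11334084, chrV:2664667-2664738 and chrX:16590931-16591003, all on the minus strand (RefSeq sequence, build WBcel235, the assembly of ce11). The valine gene was chosen after its values were seen, and in it the core matches on both strands and the capitals cover 10 bases. Of the regions at these genes, only that at *W02G9.t1* had the core within 50 bp of its summit.
B0491.t2: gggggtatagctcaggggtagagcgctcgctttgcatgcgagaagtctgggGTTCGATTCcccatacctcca
W02G9.t1: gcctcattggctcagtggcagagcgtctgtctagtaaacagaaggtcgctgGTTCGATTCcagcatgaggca
F59C12.t3: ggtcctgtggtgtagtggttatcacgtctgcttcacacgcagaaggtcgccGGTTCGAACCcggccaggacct

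The same core lay within the 150 bp upstream of 19 of 346 snoRNA genes (5.49%), against 122 of 19973 protein-coding genes (0.611%). It was on the strand of the snoRNA gene in 18 of the 19 and began a median of 15.5 bp before the annotated 5′ end, with 15 of the 18 within 30 bp. The 5 sequences below, all at snoRNA genes with an optimal region, show the 60 bases upstream of the gene and its first 5 bases on the strand of the gene, with the B box core in capitals. They lie at chrIV:7574062-7574126 (plus strand), chrII:11960838-11960902 (plus), chrII:8107266-8107330 (minus), chrIV:12086649-12086713 (plus) and chrIV:11549860-11549924 (minus). Apart from *F32E10.10*, these genes were chosen after their values were seen.
F32E10.10: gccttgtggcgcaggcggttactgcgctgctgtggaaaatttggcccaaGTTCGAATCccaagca
W03C9.9: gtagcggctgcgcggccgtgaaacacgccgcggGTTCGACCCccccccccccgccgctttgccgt
C41C4.11: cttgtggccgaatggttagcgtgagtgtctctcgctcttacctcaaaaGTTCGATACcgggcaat
F11A10.9: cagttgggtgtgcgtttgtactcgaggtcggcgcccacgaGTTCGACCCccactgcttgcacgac
F12F6.11: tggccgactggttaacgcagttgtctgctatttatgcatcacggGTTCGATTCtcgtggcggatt

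A further run of letters was read in the sequence upstream of snRNA genes and then searched on both strands as GNAACCCG, with N an A or a G. It was chosen after the sequences and their signals had been seen, and is called the upstream element below. It lay in the 100 bp upstream of 39 of 129 snRNA genes (30.2%) and 22 of 346 snoRNA genes (6.36%), but of 1 of 612 tRNA genes (0.163%) and 44 of 19973 protein-coding genes (0.22%). On the strand of the gene it began a median of 60 bp before the 5′ end of the snRNA genes, in all cases between 57 and 73 bp, and a median of 61.5 bp before that of the snoRNA genes. The 39 snRNA genes had 38 distinct upstream windows and the 22 snoRNA genes had 22, so that identical copies do not make up the count. In most of the sequences printed here the letters TGTC follow shortly after the element. They are given 5′ to 3′ on the strand of the gene and end just before it, with 75 bases for the snRNA genes and 90 bases for the snoRNA genes, and the upstream element is in capitals. First come the snRNA genes, at chrIII:12250390-12250464 (plus strand), chrIV:2655186-2655260 (minus), chrIV:9444567-9444641 (plus), chrIII:11090524-11090598 (minus) and chrIV:7316657-7316731 (plus). The snoRNA genes *Y53F4B.47*, *ZK994.7* and *F54F11.6* follow, at chrII:15025894-15025983 (minus), chrV:8500489-8500578 (plus) and chrII:13521211-13521300 (plus).
sls-2.8: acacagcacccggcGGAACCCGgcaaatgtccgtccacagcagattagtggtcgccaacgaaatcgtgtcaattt
Y69A2AR.36: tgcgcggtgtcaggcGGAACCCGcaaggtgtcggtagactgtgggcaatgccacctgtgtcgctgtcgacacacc
F38E11.10: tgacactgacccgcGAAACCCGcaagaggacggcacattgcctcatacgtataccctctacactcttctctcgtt
sls-2.14: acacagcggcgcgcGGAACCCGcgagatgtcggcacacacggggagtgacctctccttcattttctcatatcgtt
F42C5.12: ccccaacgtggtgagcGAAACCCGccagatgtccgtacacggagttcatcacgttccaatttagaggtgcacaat
Y53F4B.47: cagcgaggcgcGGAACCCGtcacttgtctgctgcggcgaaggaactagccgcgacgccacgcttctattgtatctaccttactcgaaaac
ZK994.7: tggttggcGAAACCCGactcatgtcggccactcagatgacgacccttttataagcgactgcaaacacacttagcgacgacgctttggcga
F54F11.6: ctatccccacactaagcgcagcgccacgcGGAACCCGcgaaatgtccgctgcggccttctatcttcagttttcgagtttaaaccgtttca

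Regions at small RNA genes were kept in the authors' optimal list more often than regions in general, and most of all outside promoter windows. That list keeps the pooled regions that passed an irreproducible discovery rate threshold between replicates. Its 2498 regions are the 2498 with the highest signal value, which is the authors' own score in column 7, on a scale not given in the sources used here. It held 140 of the 724 small RNA regions (19.3%), against 8.33% of all pooled regions. Within promoter windows the shares were 52 of 214 (24.3%), against 18.1% of all pooled regions there. Outside them they were 88 of 510 (17.3%), against 3.03% of all pooled regions there. Small RNA regions thus made up 14.9% of the 590 optimal regions outside promoter windows and 2.62% of the 19461 pooled regions outside them. What other features share those sites was not tested.

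The 3 biotypes differed in these shares. At snoRNA genes 66 of 182 regions were optimal (36.3%), at snRNA genes 24 of 78 (30.8%) and at tRNA genes 50 of 465 (10.8%). Outside promoter windows the values were 40 of 117 for snoRNA (34.2%), 11 of 43 for snRNA (25.6%) and 37 of 351 for tRNA regions (10.5%), each above the 3.03% of all regions there. In promoter windows, 26 of 65 snoRNA regions (40%) and 13 of 35 snRNA regions (37.1%) were optimal, but only 13 of 114 tRNA regions (11.4%), which is below the 18.1% of all pooled regions in such windows. Each replicate's own relaxed list, read by the same rule, held 536 small RNA regions in replicate 1 and 737 in replicate 2. Among those outside promoter windows, 23.1% in replicate 1 and 18.1% in replicate 2 were among that replicate's 2498 highest regions, against 3.53% and 3.16% of all its regions outside the windows. In promoter windows the tRNA share was 20% in replicate 1, above the 17.9% of all its regions there, and 10.8% in replicate 2, below the 17.6% of all its regions there, so its side of the background depended on the replicate. Outside the windows, for tRNA regions the 2 values were 18.6% and 11.8%, for snRNA regions 27% and 28.9%, and for snoRNA regions 33% and 31.5%. The order of the biotypes was therefore the same in both replicates outside promoter windows, with the tRNA share the one on which they differed most.

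**Figure D1:**
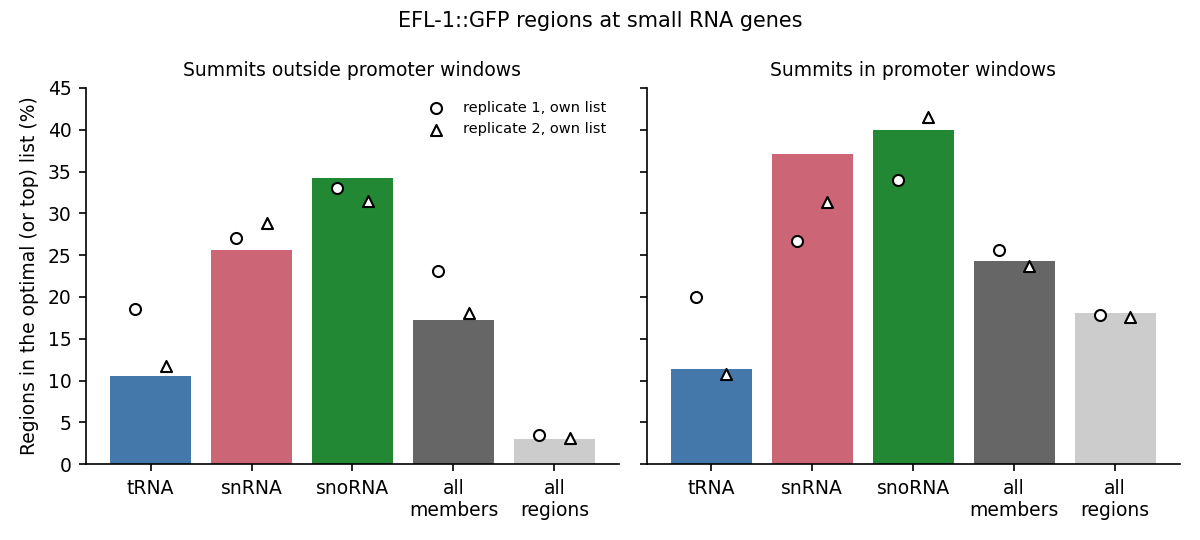
Percentage of regions in the optimal list (bars, pooled regions) and percentage among the 2498 highest regions of each replicate's own list (circles for replicate 1, triangles for replicate 2), for summits outside (left) and in (right) protein-coding promoter windows, where members are the small RNA regions. Outside the windows all 3 biotypes stand above the 3.03% of all regions, and in the windows the tRNA bar, at 11.4%, stands below the 18.1% of all regions.

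Signal at these genes was moderate. The median signal value was 21.5 in the small RNA regions, against 10.4 in all pooled regions. By biotype it was 26.6 at snRNA, 24.8 at snoRNA and 20.3 at tRNA genes. In the replicates' own regions that overlapped them, the medians were 8.36 in replicate 1 and 16.6 in replicate 2 for small RNA regions, against 6.54 and 9.15 for all pooled regions. Within the optimal list the order turned, since the 140 small RNA regions there had a median of 48.3, against 71.1 for all 2498. Only 3 of them ranked in the first 500, 8 in the second 500, and 26, 51 and 52 in the following classes of 500, 500 and 498 regions. The next 2498 regions, just below the optimal list, held 275 more (11%). In the upper 50% of the optimal list the comparison with other regions depended on the window. That upper part held 2.76% of small RNA regions, below the 4.16% of all pooled regions, but 1.76% of those outside promoter windows, above the 0.925% of all pooled regions there. By biotype it held 14 snoRNA regions (7.69%), 4 snRNA regions (5.13%) and 2 tRNA regions (0.43%).

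The 2 replicates shared part of these regions. Among the 2498 highest regions of both replicates were 86 of the 724 (11.9%), against 6.51% of all pooled regions. For the 140 in the optimal list the share was 54.3%, against 72.9% of all optimal regions, a list that was itself built from both replicates. The share of optimal regions found in both top sets was 66.7% for snRNA, 60.6% for snoRNA and 40% for tRNA regions. Neighbouring regions can overlap, as 111 of the 724 did (15.3%), and 2 of them can then be matched to the same region of a replicate. Among optimal snRNA regions this was so at *F38E11.10*, *F08G2.10* and *sls-2.1*, all counted in both top sets. In the other direction, 49 regions lay within 200 bp of 2 or more of these genes.

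**Figure D2:**
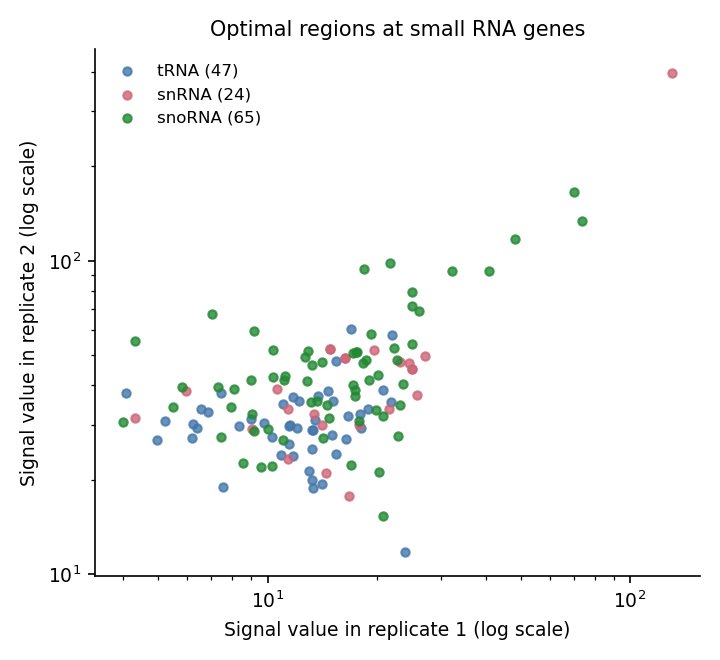
Signal value in replicate 2 against that in replicate 1 (both on log axes) for the 136 of 140 optimal small RNA regions that overlapped a region in both replicates' lists, coloured by biotype. The region at *sls-2.8*, with 131 in replicate 1 and 398 in replicate 2, stands apart at the upper right, and most of the 47 tRNA regions lie in the lower part of the cloud, with *T04D3.t2*, at 60.7 in replicate 2, the highest of them.

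Among snRNA genes the SL2 spliced leader gene *sls-2.8* stood far above the rest. SL2 RNA donates the leader that is trans-spliced onto downstream genes of worm operons. Its region, at chrIII:12250210-12250572, had a pooled signal of 545, with 131 in replicate 1 and 398 in replicate 2, and ranked 74 of all pooled regions. The summit lay 93 bp upstream of *sls-2.8*, at -208 bp from *tim-1*, a homologue of the replication fork gene timeless, and also in the promoter window of a further protein-coding gene, so these genes cannot be told apart as the site of binding. It had an E2F core, TTNNCGC with each N a C or a G, within 50 bp of the summit, a motif present in 8.51% of the windows around all pooled summits. The core is in capitals in this stretch of the plus strand at chrIII:12250322-12250354.
sls-2.8 summit: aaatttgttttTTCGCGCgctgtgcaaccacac

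The next snRNA regions had signals of 79.5 and lower. *C52E4.8*, near the spliceosomal Sm protein gene *snr-4* (-339 bp), had 79.5, with 27.1 in replicate 1 and 49.8 in replicate 2. *H27M09.6*, near the synaptonemal complex gene *syp-4* (-230 bp), had 72.9, with 24.6 in replicate 1 and 47.3 in replicate 2. *Y69A2AR.36* had 72.7, with 19.6 and 52.0 in replicates 1 and 2, and lay in an intron of *Y69A2AR.31*, outside promoter windows. Each of these regions was among the 2498 highest in both replicates. Others of the 10 highest were *Y54G9A.8* (70.5), *sls-2.1* (69.5), *F08G2.10* (67.2, at -650 bp from the histone H3 gene *his-42*), *F38E11.10* (66.6), *sls-2.2* (66.5) and *sls-2.14* (58.3). *F42C5.12* (55.3) was the fifth highest outside promoter windows, and reached 10.6 in replicate 1, outside its top regions, and 39.0 in replicate 2.

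The families of snRNA genes differed. Of 18 annotated SL2 genes of the *sls-2* family, 15 had a region within 200 bp (83.3%) and 4 had an optimal one. None of the 12 annotated *sls-1* genes, which encode the SL1 leader in the tandem repeats that also hold the 5S ribosomal RNA genes, had a region. How reads from repeats were mapped is not given in the sources used here, so this 0 was not read as an absence of binding. Of the 10 *smy* genes annotated as snRNA, which encode SmY RNAs that take part in trans-splicing, 5 had a region and 0 an optimal one. The annotation lists other *smy* genes as snoRNA, and of these, chosen after their values were seen, *smy-3* had an optimal region (43.9, 7.45 in replicate 1 and 27.4 in replicate 2) and *smy-2* a weaker one (20.5). The other 89 snRNA genes had a region in 47 cases and an optimal one in 18. Across all 129 snRNA genes, 67 had a region (51.9%) and 22 an optimal one (17.1%). As a base level, 11.7% of nuclear bases lay within 200 bp of a pooled summit and 0.984% within 200 bp of an optimal one.

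At snoRNA genes 174 of 346 had a region (50.3%) and 67 an optimal one (19.4%). The highest was at *F09G2.14*, at chrV:7196476-7196733, with a pooled signal of 235, 70.2 in replicate 1 and 166 in replicate 2. Its summit lay 45 bp upstream of the snoRNA gene and at -291 bp from *F09G2.2*. *C26C6.13* followed with 209, 73.9 in replicate 1 and 134 in replicate 2, outside promoter windows and 91 bp beyond the 3′ end of the gene. *Y53F4B.47*, shown above, had 168, with 48.2 in replicate 1 and 118 in replicate 2, and its summit lay 52 bp upstream, just after the upstream element, and at -169 bp from *cmtr-1*. These 3 regions were high in both replicates, at ranks of 487 or better in replicate 1 and 535 or better in replicate 2.

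Some snoRNA regions lay where a cell cycle or repair gene also starts. *Y41E3.464* had 120 (32.3 in replicate 1, 93.1 in replicate 2), with its summit at -143 bp from *fcd-2*, a crosslink repair gene, and 183 bp upstream of the snoRNA. *M03D4.78* had 118 (21.8 in replicate 1, 98.0 in replicate 2), at -230 bp from the cytokinesis kinesin gene *zen-4* and 109 bp upstream of the snoRNA. The position of the snoRNA and that of the protein-coding promoter cannot be told apart at such sites. *ZK994.7*, in an intron of *pxn-1*, and *F54F11.6*, in an intron of *sre-45*, lay outside every promoter window and had 101 and 99.98, with 25.1 and 26.1 in replicate 1 and 79.3 and 69.2 in replicate 2. *Y74C9A.6* (130), *Y37E3.20* (112) and *Y75B12B.12* (95.7) completed the 10 highest. *F32E10.10*, with the B box core upstream, had 81.0 in the pooled list but 7.01 in replicate 1, at rank 8292, and 67.6 in replicate 2, at rank 957. The other 4 genes printed with that core had 70.0 (*W03C9.9*, 9.16 in replicate 1 and 59.6 in replicate 2), 61.8 (*C41C4.11*, 13.3 and 46.6), 60.4 (*F11A10.9*, 12.7 and 49.2) and 52.0 (*F12F6.11*, 13.7 and 35.7), all higher in replicate 2. The median over all optimal regions was also higher there, at 53.9, against 21.9 in replicate 1. *C41C4.11*, *F11A10.9* and *F12F6.11* were among the 2498 highest regions of both replicates, and *W03C9.9* was not (rank 4118 in replicate 1).

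snoRNA genes with either run of letters upstream had a region in most cases. With the upstream element, 20 of 22 snoRNA genes had a region (90.9%) and 14 an optimal one (63.6%). With the B box core, 17 of 19 had a region (89.5%) and 10 an optimal one (52.6%). No snoRNA gene had both, and of the 305 with neither, 137 had a region (44.9%) and 43 an optimal one (14.1%). The snRNA genes behaved alike in direction, with a region at 32 of 39 genes with the element (82.1%), 13 of them optimal (33.3%), and at 35 of the 90 without it (38.9%), 9 of them optimal (10%). The 90 include the 12 *sls-1* genes, none with a region, whose 0 was not read as an absence of binding, and this lowers the shares without the element. These counts take any summit within 200 bp of the gene. The element itself lay within 50 bp of 5 of 24 optimal snRNA summits (20.8%) and 8 of 66 optimal snoRNA summits (12.1%). Over all optimal summits this was 0.841%. Of the genes printed with the element, *F54F11.6* had its summit 37 bp downstream of the gene, and *sls-2.14* and *F42C5.12* inside it. The strongest summits at the others lay upstream. Since the element was chosen with these signals in view, the differences are a description and were not tested.

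The split was present in genes within introns and in genes outside protein-coding genes. Of the snoRNA genes in introns of a protein-coding gene on the same strand, 10 of 16 with either run of letters had an optimal region (62.5%), against 11 of 127 with neither (8.66%). Outside protein-coding genes it was 11 of 21 (52.4%), against 23 of 109 (21.1%). An example in an intron, chosen after its values were seen, is *M106.6* in *mix-1*, a condensin gene, with 50.8 (17.9 in replicate 1, 30.8 in replicate 2). The 40 snoRNA genes that overlap an exon of a gene on their own strand had neither run of letters, and 2 of them had an optimal region (5%). Of these, *C51F7.4* shares its region (69.3) with the neighbouring *C51F7.3*, which has the B box core upstream and is counted with the intronic genes. Of all pooled regions, 115 had the upstream element within 50 bp of the summit (0.383%), and 25 of these 115 were small RNA regions. Optimal regions were 21 of the 115 (18.3%, against the 8.33% of all regions), and 13 of these 21 were small RNA regions. The share of 18.3% thus rests largely on genes of the kinds at which the element was chosen, and does not describe regions elsewhere.

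**Figure D3:**
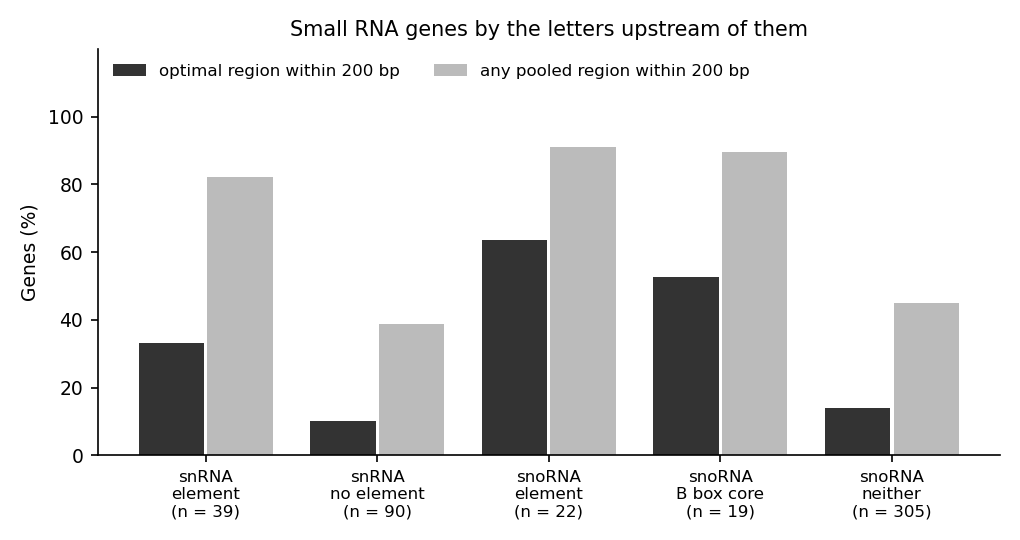
Percentage of snRNA and snoRNA genes with an optimal region (dark bars) and with any pooled region (light bars) within 200 bp, for genes with the upstream element, with the B box core or with neither upstream. Optimal regions stood at 63.6% of snoRNA genes with the element and 52.6% of those with the B box core, against 14.1% of those with neither.

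Genes for tRNAs of every amino acid had regions, most of them below the optimal list. Of 612 tRNA genes, 472 had a region within 200 bp (77.1%), but 59 an optimal one (9.64%). No tRNA region ranked in the first 1000 of the pooled list. *T04D3.t2*, a glycine gene in an intron of the guanylate cyclase gene *gcy-35*, was highest with 81.8, 17.0 in replicate 1 and 60.7 in replicate 2. Its summit lay 49 bp beyond the tRNA gene and in a promoter window, at -151 bp from *T04D3.5*. *B0491.t2*, the alanine gene printed above, had 76.6, with 22.0 in replicate 1 and 57.8 in replicate 2, lay outside promoter windows and had an E2F core. *sup-5*, a tryptophan tRNA gene known for its amber suppressor allele, had 58.5, with 15.4 in replicate 1 and 48.0 in replicate 2. *C37A2.t1*, in an intron of the cyclin E gene *cye-1*, had 50.3, with 13.7 in replicate 1 and 37.0 in replicate 2. The rest of the 10 highest were *T23F1.t1* (57.3), *T02G6.t1* (57.1, in an intron of *vab-10*), *B0350.t1* (55.9), *T28F2.t1* (54.8), *W02G9.t1* (53.2, in an intron of *ndx-2*) and *F42A10.t1* (51.1). All 10 were among the 2498 highest regions of both replicates.

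By the amino acid that the tRNA carries, regions stood at 12 of 12 tryptophan, 32 of 34 threonine (94.1%) and 29 of 31 valine genes (93.5%), the highest shares among isotypes with more than 1 gene. Histidine (10 of 20, 50%) and glutamine genes (16 of 27, 59.3%) had the lowest. Optimal regions stood at 10 of 46 lysine genes (21.7%) and 8 of 34 alanine genes (23.5%), and at 0 of 27 glutamine, 0 of 20 histidine and 0 of 19 tyrosine genes. The position of the tRNA gene relative to protein-coding genes made little difference to the share with a region, which was 77.6% in introns of the same strand, 77% in introns of the opposite strand and 76.4% outside protein-coding genes. The B box core also made little difference, with a region at 79% of tRNA genes that have it inside and at 72.4% of those that do not. Copy number moved with the share, since 79 of 143 tRNA genes with no identical copy had a region (55.2%), against 393 of 469 with 2 or more identical copies (83.8%). For snRNA genes a region stood at 58.8% of those without an identical copy and 38.6% of those with 2 or more identical copies. The lower share came from genes with 6 or more identical copies (9 of 31, 29%). With 2 to 5 identical copies it was 8 of 13 (61.5%). How reads from identical copies were placed is not given in the sources used here, and its part in these regions was not tested. All 346 snoRNA genes were without an identical copy.

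tRNA genes on chromosome X had regions as often as those on the autosomes, 213 of 276 (77.2%) against 259 of 336 (77.1%). This differed from protein-coding genes, for which 9.19% of the 5′ ends on X and 20.3% of those on the autosomes lay within 200 bp of a pooled summit. Measured in the same way, 75.4% of tRNA 5′ ends on X and 75.3% on the autosomes lay that near. Pseudogenes were level as well, with 10.1% on X and 10.1% on the autosomes, and microRNA genes had 14.9% and 19.3%. snoRNA genes went with the protein-coding genes, with 18.2% of 5′ ends on X and 48.6% on the autosomes. Optimal regions were scarcer on X for tRNA genes too, at 16 of 276 genes (5.8%) against 43 of 336 on the autosomes (12.8%). Of the 205 tRNA regions on X, 13 were optimal (6.34%), against 2.83% of all pooled regions on X. Over all chromosomes, 75.3% of tRNA, 51.2% of snRNA and 45.7% of snoRNA 5′ ends lay within 200 bp of a pooled summit, against 18.8% of protein-coding, 18% of microRNA and 10.1% of pseudogene 5′ ends. For optimal summits the values were 9.64%, 17.1% and 18.5%, against 5.11%, 3.07% and 1.13%.

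**Figure D4:**
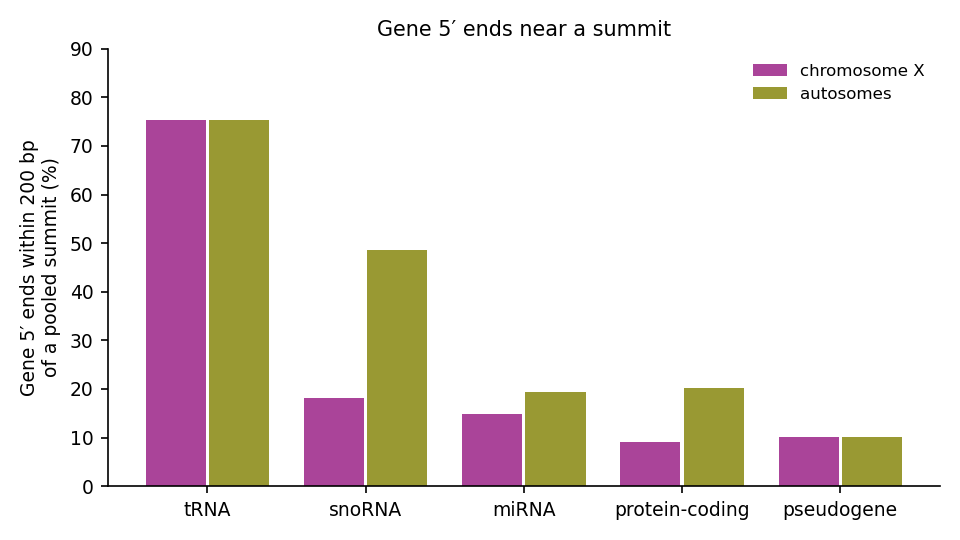
Percentage of annotated gene 5′ ends within 200 bp of a pooled summit, on chromosome X (left bars) and on the autosomes (right bars), by biotype. The 2 tRNA bars are level at 75.4% and 75.3%, as are the pseudogene bars at 10.1%, whereas the protein-coding bars stand at 9.19% and 20.3%. snRNA genes, of which 3 lie on X, are not drawn.

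Most summits lay on the small RNA genes themselves or upstream of them, and 24.1% of tRNA, 19.2% of snRNA and 20.9% of snoRNA summits lay downstream of the gene. At tRNA genes, whose median length is 72 bp, the median summit was 23 bp into the gene, or 31 bp in the optimal list, and 39.8% of summits fell inside the gene. At snRNA genes the median optimal summit was 20.5 bp into the gene. The 13 in promoter windows had a median of -45 bp and the 11 outside them 31 bp, and the positions spread widely, with quartiles of -56 and 126 bp over all 24. Some snRNA genes enter these values with both regions of an overlapping pair in promoter windows. They are *F38E11.10* (-45 and 156 bp), *F08G2.10* (-56 and 144 bp) and *sls-2.1* (-80 and 120 bp), so these sites count more than once. At snoRNA genes the median optimal summit lay at -16.5 bp, with 60.6% of optimal summits upstream of the gene. The share of regions in the optimal list was 19.7% with the summit inside a gene, 20.5% at 1 to 50 bp, 25.2% at 51 to 100 bp, 11.1% at 101 to 150 bp and 2.94% at 151 to 200 bp, where 34 regions remained. Just beyond the 200 bp limit, at 201 to 250 bp, it was 14.3% of 21 regions. These shares mix the biotypes. Inside the gene, at 1 to 50 bp and at 51 to 100 bp they were 11.9%, 12% and 11.1% at tRNA genes. In the same order they were 31.2%, 24% and 44.4% at snRNA genes and 40.4%, 46.4% and 38.7% at snoRNA genes. At 101 to 150 bp, 0 of 29 tRNA, 0 of 2 snRNA and 6 of 24 snoRNA regions were optimal. In promoter windows, 48 of the 52 optimal summits lay nearer to the 5′ end of the small RNA gene than to that of any protein-coding gene, including all 13 at tRNA genes, a nearness that the rule of 200 bp favours.

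**Figure D5:**
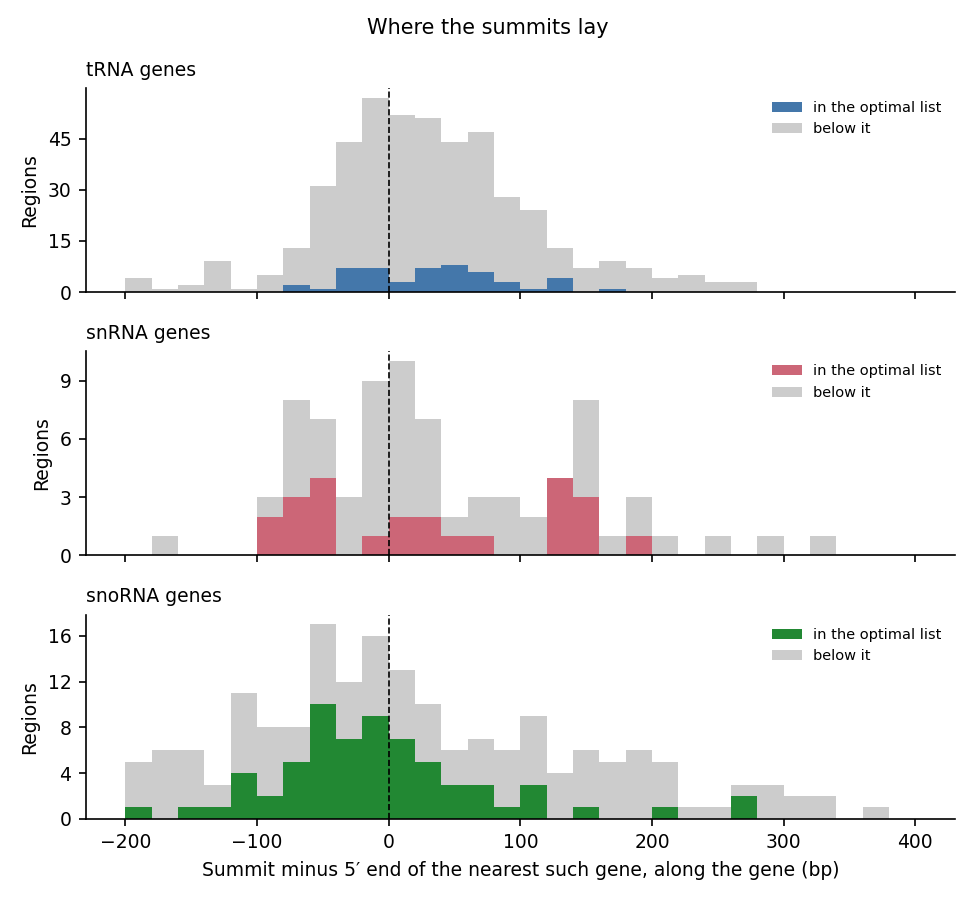
Number of regions by the distance of the summit from the 5′ end of the nearest small RNA gene, along the direction of that gene, in classes of 20 bp for each biotype, with optimal regions in colour and the rest in grey. Optimal tRNA summits centre on the gene body (median 31 bp), and optimal snoRNA summits centre just upstream of the gene (median -16.5 bp).

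The E2F core was less frequent at optimal summits of small RNA genes than at optimal summits in general, with a smaller difference over the whole pooled list. It lay within 50 bp of 44 of the 724 summits (6.08%), against 8.51% of all pooled summits. In the optimal list the gap was wider, at 11 of 140 (7.86%), against 30.7% of all optimal summits. Outside promoter windows the optimal shares were 5.68% against 29.5% of all optimal summits there, and within them 11.5% against 31.1%. By biotype the optimal shares were 8.33% for snRNA (2 of 24), 8% for tRNA (4 of 50) and 7.58% for snoRNA regions (5 of 66). These few regions were spread unevenly over the windows. In promoter windows they were 2 of 13 snRNA, 0 of 13 tRNA and 4 of 26 snoRNA regions. Outside them they were 0 of 11 snRNA, 4 of 37 tRNA and 1 of 40 snoRNA regions. In the replicates' own lists the core was present at 5.6% of small RNA summits in replicate 1 and 5.43% in replicate 2, against 6.47% and 8.4% of all their summits. Some classes went the other way, with 7.98% of tRNA summits outside promoter windows, against 7.46% of all pooled summits there, and 6.85% of tRNA summits in replicate 1, against the 6.47% of all its summits. The optimal list ends at a signal of 34.9, and the small RNA regions nearest to that limit differed little. *F38E11.10* (35.1, a second region beside its stronger one) and *T11F9.15* (34.95) lay just inside, and the snoRNA gene *C10C6.8* in *catp-8* (34.85) and a region at the snRNA gene *sup-39* (34.7) just outside. *sup-39* also had a stronger region in the optimal list (51.1).

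Protein-coding genes for the machinery that makes and uses these RNAs were bound in unequal shares. The lists for snoRNA ribonucleoproteins (77.8%) and snRNA transcription (50%) had the largest. Those for RNA polymerase III and its factors (16.7%) and tRNA processing (21.4%) lay nearer to the 12.6% of all protein-coding genes. The lists were chosen with earlier results of these data known. A gene counted as bound when its promoter window held an optimal summit, which was true of 22 of 56 genes on 5 lists (39.3%), against 12.6% of all protein-coding genes. Of 9 snoRNA ribonucleoprotein genes 7 were bound, led by *dkc-1*, which encodes the pseudouridine synthase dyskerin (signal 808, 149 in replicate 1 and 657 in replicate 2), then *nol-58* (454), the fibrillarin gene *fib-1* (108) and *ruvb-2* (85.7), with *gar-1* and *ruvb-1* unbound. Of 18 genes of snRNA transcription, 9 were bound, among them the SNAPc subunit genes *snpc-3.4* (904, 260 in replicate 1 and 644 in replicate 2), *snpc-1.1* (235) and *snpc-1.2* (122) and the Integrator gene *ints-4* (224), with *ints-11* and *ints-13* unbound. The assembly factor gene *smn-1* had 579 (157 in replicate 1, 416 in replicate 2) and was the bound gene of 3, with *smi-1* and *tgs-1* unbound. Of 12 genes of RNA polymerase III and its factors 2 were bound (16.7%), *mafr-1*, which encodes the repressor Maf1 (402, 99.4 in replicate 1 and 305 in replicate 2), and the subunit gene *rpac-19* (61.1), with *brf-1* and *rpac-40* unbound. Of 14 genes of tRNA processing 3 were bound (21.4%), namely *pus-1* (164), *rtcb-1* (77.0) and *trm-1* (44.0), with *elpc-1* and *elpc-2* unbound. The region of *trm-1* is also the one by which the Integrator gene *ints-2* was called bound. Unbound means here that no optimal summit lay in the promoter window, not that binding was absent. The highest region of each of these 22 genes was not one of the 724 small RNA regions.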

How the data were processed

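ChIP-seq for EFL-1::GFP was analysed from 4 peak lists in build ce11: a relaxed list for each of 2 replicates, a pooled relaxed list and an optimal list; the ce10 lists were not used. Per the descriptions deposited with the samples, the authors called the relaxed lists from each replicate's alignments or from both together, against a control library that was not analysed here, and kept in the optimal list pooled peaks that passed an irreproducible discovery rate threshold. Per the file columns, each deposited region has the authors' signal value (never negative), a −log10 q-value and the offset of its summit. Which aligner, caller and threshold were used is not given in the sources used here. Read totals were not used, so depth is unknown.

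Positions are counted from 1. Genes came from Ensembl release 115 and names and bases from RefSeq, both WBcel235, whose chromosome lengths hold all ce11 regions. 1 summit could match several genes. A replicate was matched by its highest region overlapping by at least 1 bp. Motifs were searched within 50 bp of summits with Python 3.11.15, pandas 2.3.3 and numpy 2.4.6, after the counting was tested on planted positions. No test was run. Named genes are those of the 10 highest regions per biotype, the 5 highest outside promoter windows, the 4 nearest the optimal limit, and up to 4 bound and 2 unbound genes per list. The members, lists and motifs were chosen with earlier results of these data known. Alternatives were other distances, windows, overlaps and thresholds, and each replicate alone. In the pathway lists, 4 names matched no gene.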

Additional observations from a re-analysis of the deposited data

How the results depend on the processing

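No paired analysis was possible because the series has 1 group. The 14 shares and counts were recomputed under 9 alternatives, several of which, such as the motif window, bear on a few of them only. Leaving out replicate 2 shifted 9 of 13 by enough to be counted as moved, and the upper 50% of the optimal list did so for 7 of 14. Not every shift counted without replicate 2 exceeded the spread between the replicates. The shares of snRNA genes (51.9% to 47.3%) and snoRNA genes (50.3% to 42.8%) with a region moved by less than that spread. In the upper 50% of the optimal list, the shares of optimal regions were 2.76% of small RNA regions, 0.43% of tRNA, 5.13% of snRNA, 7.69% of snoRNA, 5.14% of promoter-window and 1.76% of other regions, so that the first was below the 4.16% of all pooled regions, and 23.2% of pathway genes were bound. A distance of at most 500 bp gave 28.3% of snRNA and 29.1% of snoRNA regions optimal, 56.6% of snRNA and 65.6% of snoRNA genes with a region, the E2F core at 6.39% of regions and the B box core at 32.2% of tRNA regions. A distance of at most 100 bp gave 42.4% of snoRNA regions optimal, 39.9% of snoRNA genes with a region, the E2F core at 6.45% and the B box core at 39.1%. Motif windows of 25 bp gave 3.18% for the E2F core and 18.3% for the B box core. Promoter windows from 500 and 2000 bp upstream gave 35.7% and 41.1% of pathway genes bound, and a reciprocal overlap of 50% put 9.39% of regions in both top sets. With either replicate left out, the ranges were as follows. The share optimal was 19.7 to 23.9% of small RNA regions, 11.6 to 19% of tRNA, 26.9 to 30% of snRNA, 33.3 to 34.9% of snoRNA and 18.1 to 23.1% of regions outside promoter windows. Genes with a region made up 55.6 to 77% for tRNA, 47.3 to 52.7% for snRNA and 42.8 to 52.9% for snoRNA. The E2F core stood at 5.43 to 5.6% of regions and the B box core at 32.4 to 34.3% of tRNA regions, and 37.5 to 39.3% of pathway genes were bound. The causes of these shifts were not tested. With depth unknown, a gene with no region cannot be read as free of binding.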
